A study of Mus musculus with 54 samples.

Results

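Cultured primary mouse microglia were compared in 6 RNA libraries: 3 labelled as donors at 0 min, and 3 labelled aSyn_Donor that carry the same replicate numbers 1, 2 and 3. They were chosen by their titles alone and make up 6 of the 54 libraries of the series. A further aSyn_Donor library, of replicate number 4, has no 0 min partner and entered only where named. Both groups are C57BL/6 microglia from neonatal brains, pooled in pairs for plating, grown in serum-containing medium with supernatant of L929 cells (a fibroblast line that secretes a macrophage growth factor), and shaken off the astrocyte layer. Both groups carry the title of donors, cells that received 1 µM alpha-synuclein (aSyn) labelled with the fluorophore Atto-488 for 14 h. The study then mixed donors with acceptors, microglia stained with CellTracer Violet and given no aSyn, for set times and separated them again by flow sorting. What was done to the 0 min cells, and whether the aSyn_Donor cells (aSyn-only in the following) went through mixing, detachment or the sorter, is not given in the sources used here. A difference between the groups can therefore lie in any of those steps, and these cannot be told apart. The 3 replicate numbers are 3 experiments, at culture passages 3, 1 and 2 in that order. Nothing in the labels says that they came from separate animals, so p-values measure the spread between these samples.

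Microglia are the resident phagocytes of the brain. They bind and take up aggregating proteins such as aSyn, pass them to lysosomes for degradation, and keep a set of stress-inducible genes whose messages rise within minutes of mechanical handling, warming or enzyme treatment. They also engulf myelin and whole dying cells, so a microglial culture can contain messages of other brain cells, either inside microglia or in cells shaken off with them. In RNA from whole samples, fewer cells of a type and less RNA per cell cannot be told apart.

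The 6 libraries held between 11477523 and 15029452 counts. A library without a count for a gene allows up to 3 counts, which is 0.199 to 0.269 CPM (counts in every 1000000 of a library) in the 0 min donors and 0.219 to 0.244 CPM in the aSyn-only libraries. The 0 min donors had counts for 13597, 13850 and 13656 genes and the aSyn-only libraries for 13977, 13956 and 14007, without overlap (two-sided exact permutation test, p = 0.1, the smallest p that 3 against 3 can give, 0.943 adjusted over 22 tests of library measures). All 12 microglial markers had counts in all 6 libraries, and their summed level was 7343 to 9460 CPM in the 0 min donors and 6965 to 7938 CPM in the aSyn-only libraries. Astrocyte markers summed to 10.7 to 25.5 against 14.4 to 37.0 CPM, and neuronal markers to 1.25 to 3.25 against 1.90 to 5.46 CPM. Fibroblast, endothelial and mural markers summed to 53.2 to 78.1 against 54.9 to 81.9 CPM, with the collagen gene Col3a1 at 0 in 4 of the 6 libraries, and markers of other leukocytes to 81.9 to 203 against 78.6 to 209 CPM. None of the astrocyte, neuronal, fibroblast or leukocyte markers tested (6, 2, 3 and 1 genes) was called in the paired fit described next. The sequencing facility's library numbers place the 0 min donors at rank 14 of 14, 14 of 14 and 12 of 13 in their experiments and the aSyn-only libraries at ranks 2, 3 and 2, and the part of this order in the differences was not tested.

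Fold changes between 0 min and aSyn-only cells were small for nearly all genes: of 9049 genes of at least 5 CPM, 0.630, 0.276 and 0.961% were over 2-fold apart in the pairs of experiments 1, 2 and 3. The predicted gene Gm6570 was lower at 0 min. In the fit of the 6 libraries by pairs the granulocyte-macrophage growth factor receptor Csf2ra, the lysosomal membrane protein Cd63 and the transcription factor Usf2 were higher. How many genes passed depended on how the spread was estimated. The group fit (edgeR quasi-likelihood test over 40 samples in 14 groups, Benjamini-Hochberg adjusted p under 0.05) called 0 of 13079 genes, or 0%, with 517 genes (3.95%) at an unadjusted p under 0.05 and a smallest adjusted p of 0.681. DESeq2 on the same samples also called 0 genes, with 535 at an unadjusted p under 0.05. With the experiment as a block, the same edgeR fit called 2 genes (0.0153%), both lower, among them Gm6570 (adjusted p 0.0439).

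Fitted alone with their pairing, the 6 libraries gave 679 called genes of 11429 (5.94%), of which 440 (3.85%) were higher and the rest (2.09%) lower at 0 min. This 6-library paired fit is an alternative to the group fit, which is the main test. The 3 fits gave nearly the same fold changes and differed in the spread they were set against: the estimated biological coefficient of variation was 30.1% over all 14 groups, 16.1% with the block and 8.62% in the paired fit. The paired fit had 2 residual degrees of freedom per gene of its own and borrowed 17.9 from the other genes. Among genes of at least 5 CPM, the median half-width of a 95% interval was 1.16-fold in it, against 1.32-fold in the group fit. The called genes changed little: the median was 1.30-fold higher among the 440 and 1.26-fold lower among the rest, and 14 rose and 22 fell by over 2-fold. They were also more abundant, with a median level of 80.8 CPM when higher and 66.9 CPM when lower, beside 21.7 CPM over all genes tested. The shares of all genes given beside the lists below are not matched for level. How far abundance accounts for a list's share was not tested. On the same 6 libraries DESeq2 called 419 genes, 405 of them shared, and limma-voom 679, with 635 shared. Without experiment 1, 2 or 3 the paired fit called 980, 423 and 358 genes, sharing 579, 362 and 292 with the 679. In the following, "rose" and "fell" refer to the 6-library paired edgeR fit and its adjusted p, and a gene so described was not called in the group fit.

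**Figure D1:**
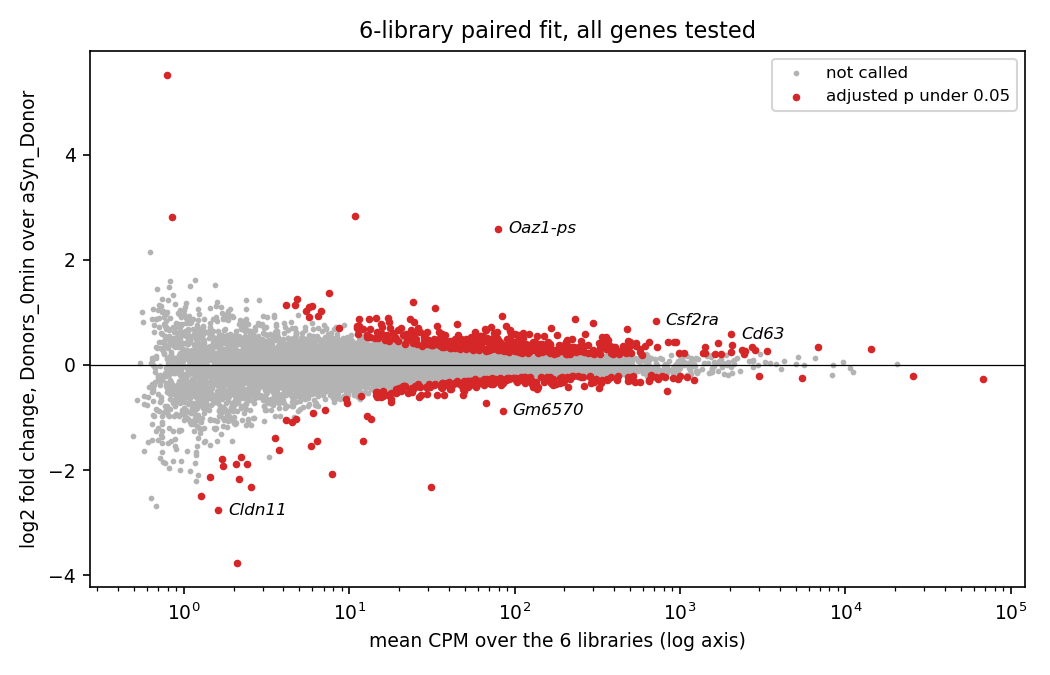
Each point is 1 of the 11429 genes in the 6-library paired fit, with its mean level (CPM, log axis) on the x axis and the log2 fold change of 0 min donors over aSyn-only on the y axis. Red points are the 679 called genes, 440 of them higher, and all but 14 higher and 22 lower ones lie within 2-fold.

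Several genes typical of oligodendrocytes, the myelin-forming cells, were lower at 0 min. Cldn11, a tight-junction protein of myelin, was at 0.448, 0.265 and 0.443 CPM at 0 min and at 2.58, 1.17 and 4.80 CPM in aSyn-only cells, without overlap (log2 fold change -2.76, SE 0.54, paired edgeR fit, adjusted p 0.00357). Its 0 min values rest on few reads, near the limit of 3 counts in these libraries (0.269, 0.199 and 0.221 CPM). Mag, the myelin-associated glycoprotein, was at 1.25, 3.91 and 3.62 CPM against 4.62, 4.74 and 9.04 CPM (-1.08, 0.0432). The lowest Mag value belonged to the donor of experiment 1, and the groups did not overlap. Mbp, myelin basic protein, was at 83.5, 76.6 and 112 CPM against 104, 86.7 and 134 CPM and fell within each pair although the groups overlapped (-0.25, 0.0376). Bcas1, a gene of newly formed oligodendrocytes, and Gpd1, a glycerol phosphate dehydrogenase, also fell by 1.79 and 2.13 on the log2 scale (adjusted p 0.0411 and 0.0480), from levels of at most 5.21 CPM. Cnp, a myelin enzyme, was at 64.7, 67.1 and 73.1 against 61.5, 72.9 and 80.9 CPM and was not called. Of 9 oligodendrocyte markers in the paired fit, 0 rose and 3 fell (33.3%), Mag and Mbp among them, beside 3.85% of all genes called higher and 2.09% lower, and none of the 10 listed was at 0 in any of the 6 libraries. Syt4 and Elavl3, genes of neurons outside the marker list, fell too, Syt4 from 1.82, 1.90 and 9.12 CPM to 0.179, 0.597 and 1.70 CPM (paired edgeR fit, adjusted p 0.00330). The Syt4 value of 0.179 CPM, in the donor of experiment 1, lay under the limit of 3 counts in that library (0.269 CPM). The 2 listed neuronal markers in that fit, Map2 and Rbfox3, were not called, at log2 fold changes of -0.41 and 0.04. The part of other cells or of engulfed material in these values was not tested.

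Gm6570 was called with the block. It was at 56.9, 51.7 and 71.1 CPM at 0 min and at 106, 99.3 and 123 CPM in aSyn-only cells, with every donor below every aSyn-only library of these experiments. The aSyn-only library of experiment 4 had 53.0 CPM per library total. That lies within the range of the 0 min donors on the same scale (55.3, 51.9 and 69.3). On the level of Gm6570, the aSyn-only libraries of all experiments were thus not alike. Its log2 fold change was -0.87 in both edgeR fits, with an SE of 0.21 and an adjusted p of 0.681 in the group fit, and 0.07 and 3.21e-07 in the paired fit. In acceptors at 0 min it was at 103, 90.7 and 83.5 CPM against 102, 68.9 and 118 CPM in untreated cells, which overlap. RefSeq places it on chromosome 3, 87679643 to 87680025, of GRCm38 as protein-coding, while GENCODE vM21 has no gene of that name, and its function is not described here.

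The genes with the next lowest p-values on the lower side had varied functions. Hnrnpa1, a nuclear RNA-binding protein of splicing, was at 49.2, 58.3 and 43.5 CPM at 0 min and at 84.0, 84.2 and 81.999 CPM in aSyn-only cells. The aSyn-only values were nearly equal, and all 3 donors lay below them (log2 fold change -0.73, SE 0.09, paired edgeR fit, adjusted p 2.14e-05). Pabpc1, the cytoplasmic poly(A)-binding protein, fell from 1049, 991 and 859.7 CPM to 766, 787 and 529 CPM (-0.49, 1.19e-04), again without overlap. Vps29, a subunit of the retromer that returns receptors from endosomes, fell from 147, 146 and 185 to 106, 109.6 and 140.2 CPM (-0.42, 4.20e-04). Tmem132a, a transmembrane protein, stood at 8.33, 8.09 and 10.4 CPM against 16.3, 17.7 and 20.8 CPM, without overlap (-1.03, 2.79e-04). Cct4, a subunit of the chaperonin that folds actin and tubulin, fell by 0.32 on the log2 scale, from 163 to 171 CPM down to 129 to 142 CPM (0.00430). Sh3bgrl, Ccng1 and Evi2a were among the 12 lowest p-values as well, with log2 fold changes of -0.40, -0.45 and -0.34.

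The genes with the lowest p-values on the higher side had varied functions as well, and the membrane proteins Csf2ra, Cd63 and Igsf6 were among them. Csf2ra, the alpha chain of the receptor for granulocyte-macrophage colony-stimulating factor, was at 841, 841 and 1062 CPM at 0 min against 462, 456 and 619.7 CPM, with every donor above every aSyn-only library. On the log2 scale it was higher by 0.84 in both edgeR fits, with an SE of 0.27 and an adjusted p of 1 (unadjusted 0.00486) in the group fit, and 0.06 and 1.69e-08 in the paired fit. Cd63, a tetraspanin of late endosomes and lysosomes, was at 2610, 2150 and 2614 CPM against 1641, 1468 and 1808 CPM (0.59, SE 0.06, 3.81e-06). Both genes were higher by a similar factor in all 3 pairs. Bin2, a membrane-curving protein of leukocyte podosomes and phagocytosis, was at 325, 301 and 273 CPM against 155, 187 and 150.2 CPM (0.87, 1.85e-07). Igsf6, an immunoglobulin-superfamily protein of myeloid cells, was at 579.5, 499.6 and 698 CPM against 343, 332 and 437 CPM (0.68, 5.98e-07). Usf2, a helix-loop-helix transcription factor that binds E-boxes, was at 407, 338 and 392 CPM against 224, 204 and 228.98 CPM (0.79, 8.65e-08). All 3 genes were without overlap between the groups. Igsf6 and Usf2 overlap genes on the other strand (Mettl9, and Gm17077 with Gm44662), and the counter's use of strand is not given in the sources used here, so their reads cannot be told apart from those partners'. An annotated gene on the other strand also overlaps Tmem132a, Vps29, Sh3bgrl, Evi2a, Mbp, Cnp, Bcas1, Gpd1 and Syt4 and, among genes that follow, St3gal5, Akna, Polr2c, Ppp1r3b, Pcdhgb2, Dusp1, Zfp36, Atf3, Jun, B2m, Ctsb, Tap2, Il1b, Hspa1a, Gclm, Gapdh, Vcl, Csf1r, Cx3cr1, P2ry12, LTO1, Fndc3a, Gm4070 and Sp100. Their values carry the same doubt. Overlaps were looked up for part of the genes named, so this list may not be complete.

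Enzymes and regulators were among these genes as well. St3gal5, the synthase of the ganglioside GM3, was at 128, 113 and 92.8 CPM at 0 min against 67.7, 72.7 and 59.6 CPM, and rose by 0.73 on the log2 scale (paired edgeR fit, adjusted p 8.79e-06). Man1c1, a Golgi mannosidase, rose by 0.58 (8.79e-06) although its groups overlapped, at 406, 238.1 and 319 CPM against 258, 170.2 and 212 CPM. Cyb5r1, a cytochrome b5 reductase, rose by 0.70 (8.78e-06), and Akna, a centrosomal protein first described as a transcription factor, by 1.09 (4.61e-06). Sertad3, a transcriptional co-regulator, was at 32.3, 31.9 and 37.5 CPM against 15.8, 16.1 and 12.5 CPM, with an even gap in all pairs (1.20, 8.90e-06).

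**Figure D2:**
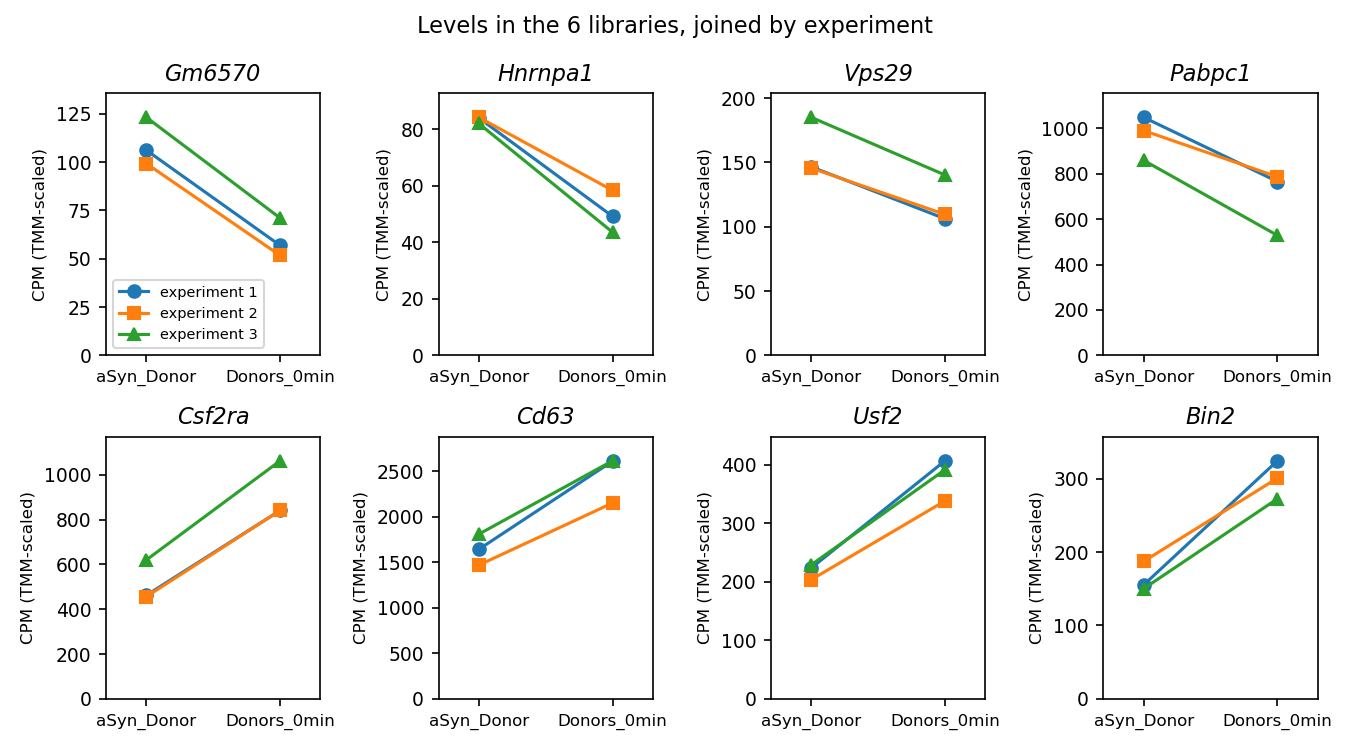
Levels of Gm6570, Hnrnpa1, Vps29, Pabpc1, Csf2ra, Cd63, Usf2 and Bin2 in CPM in each of the 6 libraries, with a line joining the aSyn-only and 0 min donor library of an experiment. In each of the 8 genes the 3 lines run the same way and the groups do not overlap.

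The following were among the genes with the lowest unadjusted p-values in the group fit, none of them called. They were picked among genes of at least 5 CPM with 1 direction in all 3 pairs. Ebp, an isomerase of cholesterol synthesis, was at 80.6, 71.3 and 71.4 CPM at 0 min and at 54.6, 45.7 and 51.6 CPM in aSyn-only cells (log2 fold change 0.55, SE 0.14, group fit adjusted p 0.681 and paired fit 2.15e-04, both by edgeR). Polr2c, a subunit of RNA polymerase II, was at 74.6, 82.7 and 83.2 CPM against 54.9, 56.5 and 56.5 CPM (0.52, SE 0.13). Nup93, a scaffold protein of the nuclear pore, was at 45.6, 40.3 and 40.6 CPM against 27.5, 22.5 and 26.1 CPM (0.73, SE 0.18). In these 3 genes every donor lay above every aSyn-only library. The kinase Ulk3, the tetraspanin Tspan14 and Ppp1r3b, a glycogen-targeting subunit of protein phosphatase 1, were placed likewise at log2 fold changes of 0.88, 0.66 and 1.12. The 20 genes picked in this way, 10 in each direction, kept their sign in each of the 27 other settings. Those settings reuse the libraries by which the genes were picked, so this is no test. Across all genes tested, 17.7% were higher and 20.8% lower in all 3 pairs, and 4.92% were higher and 4.53% lower without overlap of the groups.

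The lowest p of the paired fit belonged to Oaz1-ps, a processed pseudogene. It was at 192, 102 and 114 CPM at 0 min and at 35.3, 13.4 and 21.0 CPM in aSyn-only cells (2.59, SE 0.09, paired edgeR fit, adjusted p 3.38e-13), and its parent Oaz1, the antizyme that limits polyamine synthesis, was at 511, 447 and 571 against 649, 572 and 697 CPM (-0.33, 0.00146). The pseudogene thus took 27.3, 18.6 and 16.7% of the reads of the 2 genes at 0 min and 5.16, 2.29 and 2.92% in aSyn-only cells. How the counter divided reads between near-identical copies is not given in the sources used here, so the split is uncertain. The same share ran from 0.962 to 29.2% over the other 34 samples of experiments 1 to 3 and from 0.0132 to 0.742% in experiment 4. Gng5-ps, a further processed pseudogene, fell by 0.45 (3.64e-04), and Pcdhgb2 rose by 2.84 (6.94e-05) from 1.36, 0.657 and 6.68 to 30.1, 8.95 and 17.0 CPM. Pcdhgb2 shares its final exons with the other gamma protocadherins, and both genes are uncertain for the same reason.

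Immediate early genes encode transcription factors and feedback regulators whose messages respond to a stimulus without new protein synthesis. Of 36 tested members, 9 rose (25%) and 3 fell (8.33%) in the paired fit, beside 3.85% and 2.09% of all genes. Their 47.2% higher and 13.9% lower in all 3 pairs (17 and 5 genes) stand beside 17.7% and 20.8% of all genes. The median log2 fold change of the list was 0.16 in the group fit (0.23, 0.12 and 0.16 in the 3 pairs), beside -0.02 over all genes, and it was 0.10 to 0.26 over the other settings. Dusp1, a phosphatase that ends MAP kinase signalling, was at 475, 336 and 358 CPM at 0 min against 361, 256.6 and 274 CPM. It was higher by a similar factor in each pair although the groups overlapped (0.39, SE 0.06, paired edgeR fit, adjusted p 2.85e-04). The small GTPase Rhob rose by 0.55, the transcription factor Srf by 0.55, the mRNA decay factor Zfp36 by 0.36, Junb by 0.33 and Klf2 by 0.32. Atf3, Gadd45b and Egr3, all stress-responsive, fell by 0.28, 0.35 and 0.57 on the log2 scale. Fos, a subunit of the AP-1 factor, was at 377, 204 and 257.1 against 285, 192 and 242 CPM and did not pass (0.20, 0.0994). Jun, Egr1, Nr4a1 and Ier2 were not called, at log2 fold changes of 0.08, 0.37, 0.28 and 0.14.

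Genes of protein synthesis and respiration were called mostly on the lower side. Of 76 cytosolic ribosomal protein genes 2 rose (2.63%, below the 3.85% of all genes) and 13 fell (17.1%, beside 2.09%), with a list median of -0.10 in the group fit, which turned to 0.09 when experiment 4 was added without a block. Rps29 was at 3184, 2568 and 2631 CPM at 0 min against 3482, 3048 and 3141 CPM (-0.21, paired edgeR fit, adjusted p 0.0365), and Rpl34 at 49.4, 48.9 and 43.5 against 61.2, 53.8 and 69.4 CPM (-0.37, 0.0269). The pair of experiment 1 had a list median of 0.02, beside -0.15 and -0.15 in experiments 2 and 3. Of 70 nuclear-encoded genes of oxidative phosphorylation 1 rose (Ndufb3, 1.43% of the list, below the 3.85% of all genes) and 8 fell (11.4%, beside 2.09%), led by Ndufb4 at -0.47, a subunit of complex I. Their list median was -0.10 in the group fit, with 0.01, -0.14 and -0.14 in the pairs, and reached 0.02 with experiment 4 added without a block. Experiment 4 has no 0 min sample, so in both lists it added to this contrast only an aSyn-only library. Rn45s took 17.7% of the counts of that library and 9.24, 7.73 and 4.78% in the aSyn-only libraries of experiments 1, 2 and 3. The part of such differences between experiments in these medians was not tested.

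In the lists of lysosomal and antigen presentation genes the few called members rose. Of 55 lysosomal genes 5 rose (9.09%, beside 3.85% of all genes) and 0 fell (beside 2.09%): Cd63, the growth factor progranulin Grn, and the proton pump components Atp6v1b2, Atp6v0b and Atp6ap1. Grn was at 3033, 3536 and 2593 CPM at 0 min against 2260, 2910 and 2058 CPM (0.35, SE 0.06, paired edgeR fit, adjusted p 8.33e-04), higher in every pair. The cathepsins Ctsb and Ctsd, the most abundant proteases of the list, were not called, and their 95% intervals in the paired fit ran from -0.19 to 0.06 and from -0.12 to 0.12. The list median was 0.05, and -0.01 in the pair of experiment 2. Of 20 antigen presentation genes 4 rose (20%, beside 3.85% of all genes) and 0 fell (beside 2.09%): the class I heavy chains H2-D1 and H2-K1 (0.28 and 0.38), the peptide transporter subunit Tap2 (0.43) and its partner tapasin, Tapbp (0.23). H2-K1 was at 1633, 2996 and 2294 CPM against 1191, 2529 and 1693 CPM, which overlap, with experiment 1 lowest in both groups. B2m, the light chain, was not called (0.05).

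Among 44 interferon-stimulated genes 2 rose (4.55%, near the 3.85% of all genes) and 6 fell (13.6%, beside 2.09%). Ifit3 and Ifit3b, neighbouring and closely related antiviral genes, rose by 0.27 and 0.43 (paired edgeR fit, adjusted p 0.00715 and 0.00307), and Ifit2, Cmpk2, Stat2, Phf11d, Ifi27l2a and Ddx60 fell. Ifit2 was at 149, 172 and 143 CPM at 0 min against 183, 236.3 and 185 CPM (-0.37, 0.00136), while Ifit3 was at 387, 505 and 513 against 330.0, 419 and 418 CPM. Members of 1 family thus moved in opposite directions in the same libraries, and the close similarity of Ifit3 and Ifit3b makes the split between them uncertain. Isg15, a ubiquitin-like protein, was at 238.8, 515 and 403 against 224, 549 and 463 CPM and was not called. The list median was -0.08 in the group fit and ranged from -0.36 to 0.11 over the other settings.

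In the remaining lists the calls were few, and their shares are to be read beside 3.85% of all genes called higher and 2.09% called lower. Higher calls made up 3.57% of the NRF2 and cholesterol lists, 3.33% of the glycolysis list and 4.35% of the actin list, all near that background, and 8.33 to 11.8% of the NF-kB, heat shock and endoplasmic reticulum stress lists. Lower calls made up 0 to 2.78% of the heat shock, cholesterol, cell cycle and NF-kB lists and 5.88 to 10.7% of the endoplasmic reticulum stress, glycolysis, actin and NRF2 lists. Of 36 NF-kB inflammatory genes the inhibitor Nfkbia (0.20), the interleukin-1 receptor antagonist Il1rn (0.38) and the chemokine Cxcl2 (0.29) rose, and the chemokine Ccl2 fell (-0.36). The cytokines Tnf and Il1b were not called (-0.11 and 0.10). Of 23 heat shock genes Hsp90ab1 (0.35) and the cochaperone St13 (0.26) rose, while the inducible Hspa1a was at 11.8, 11.1 and 16.7 CPM against 10.4, 13.7 and 15.1 CPM and not called (0.01, 95% interval -0.32 to 0.34). Of 34 genes of endoplasmic reticulum and integrated stress, Atf4, Nupr1, Ddit3 and Hsp90b1 rose by 0.21 to 0.36, and Pdia3 and Sesn2 fell. Of 28 NRF2 targets the glutathione reductase Gsr rose, and the ferritin chain Fth1, Gclm and the factor Nfe2l2 itself fell. Of 30 genes of glycolysis and hypoxia Gapdh rose and Pgk1 and Ldha fell. Of 46 actin and adhesion genes Tmsb4x and Arpc1b rose, and Arpc2, Actr2, Vcl and Exoc1 fell. Pcna was the 1 gene called of 44 cell cycle genes and fell (-0.22), and Ebp, which rose, the 1 of 28 genes of cholesterol synthesis. Of 16 osmotic and mechanical response genes 0 were called, with a list median of -0.03 in the group fit.

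Of 12 microglial identity markers 4 rose (33.3%, beside 3.85% of all genes) and 0 fell (beside 2.09%): Csf1r, the growth factor receptor on which microglia depend, C1qa, Aif1 and Cx3cr1. C1qa, a chain of complement C1q, was at 1805, 1708 and 2278 CPM at 0 min against 1284, 1399 and 1648 CPM, without overlap (0.42, SE 0.06, paired edgeR fit, adjusted p 2.07e-04). Csf1r was at 2207, 1673 and 1787 against 1921, 1562 and 1447 CPM and rose by 0.20 (0.0440). Of the 12 markers 5 were higher in all 3 pairs (41.7%, beside 17.7% of all genes). Ptprc was the 1 marker lower in all 3 (8.33%, beside 20.8% of all genes) and was not called (-0.08). The homeostatic genes Tmem119 and P2ry12 were low, at 4.23 to 12.99 CPM, and not called. Of the 23 homeostatic genes tested 4 rose (17.4%) and 1 fell (4.35%). Among these, C1qc rose as well (0.21) and Gas6, a ligand of phagocytic receptors, fell (-0.22). Of 24 disease-associated microglia genes Apoe (0.30) and Cd63 rose (8.33%) and Spp1 (-0.25) fell (4.17%). Apoe, the lipid carrier, was at 17157, 13039 and 17456 CPM against 12948, 12036 and 13440 CPM. The chemokine receptor Cxcr4 was at 242, 258.96 and 200.2 CPM against 168, 204 and 152 CPM and rose by 0.43 (2.95e-04).

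**Figure D3:**
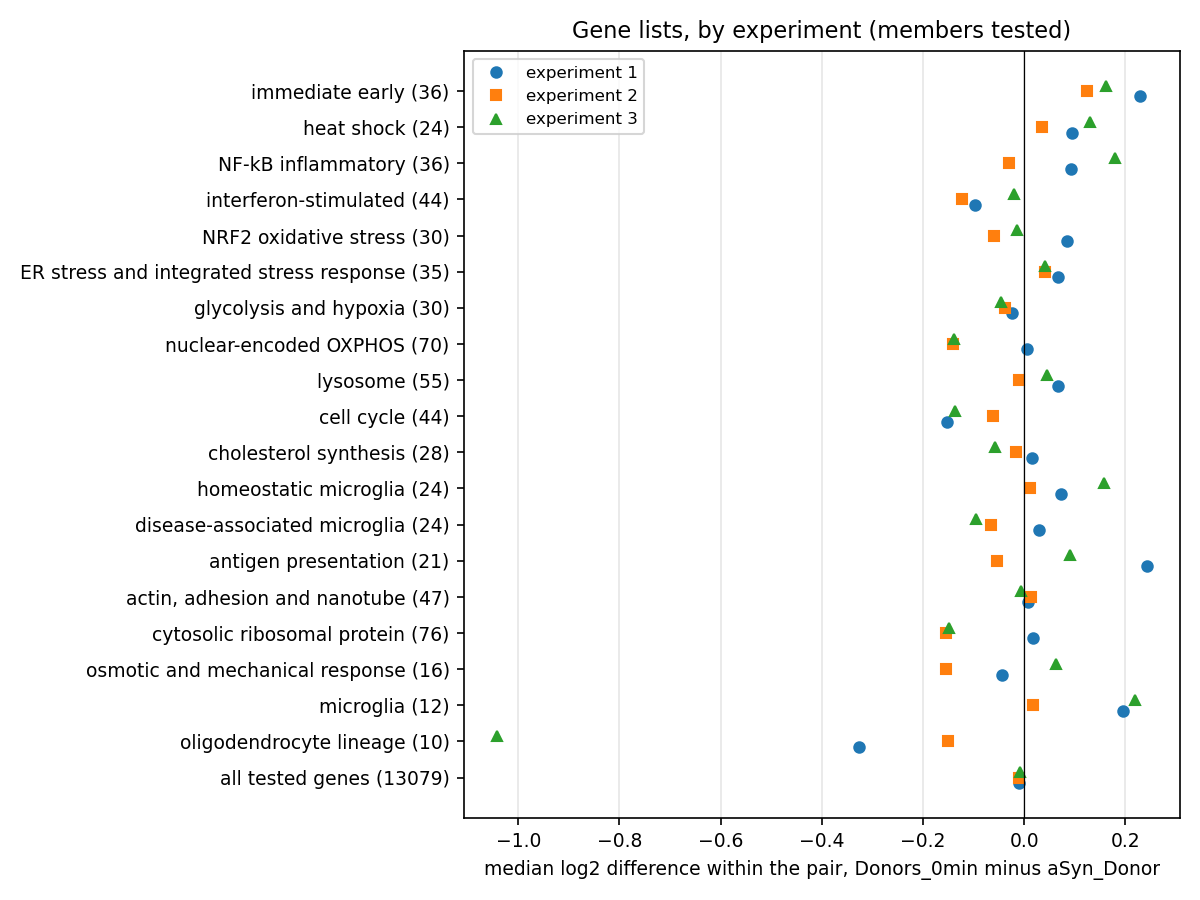
Median log2 fold change of 0 min donors over aSyn-only for the 17 pathway lists and the microglial and oligodendrocyte marker lists. Each of the 3 experiments has 1 symbol, with a line at 0 and all tested genes in the bottom row. The other marker lists are not drawn. The immediate early list lies above 0 in all 3 pairs (0.23, 0.12 and 0.16) and the oligodendrocyte list below it (-0.33, -0.15 and -1.04). Other lists also keep to 1 side, such as heat shock above 0 (0.09, 0.04 and 0.13) and cell cycle below it (-0.15, -0.06 and -0.14).

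Acceptors at 0 min and untreated cells (labelled Untreated_Ctrl), both given no aSyn, come from 7 other libraries and were compared in the same way. Acceptors are the cells stained with CellTracer Violet, and the part of the dye in this contrast was not tested. The group fit called 2 genes in that contrast (0.0153%), among them Mat2a, and with the block 376 (2.87%). The paired edgeR fit called 90 of 11359 genes (0.792%), and 19 genes were called in both contrasts, which is 2.80% of the donor list and 21.1% of the acceptor list. Of the 19, 16 moved in the same direction. Among these, Cldn11, Bcas1, Gpd1, Syt4 and Elavl3 named above, Snx2, Fndc3a and LTO1, the chemokine Ccl12, the interferon-stimulated Cmpk2, Ifit2, Stat2 and Phf11d, and the large GTPase genes Gvin1 and Gm4070 were lower in both. Gvin1 and Gm4070 are closely related neighbours with nearly equal counts, so their split is uncertain. Ifit3, Ifit3b and Sp100 rose in donors and fell in acceptors. The interferon-stimulated list had a median of -1.16 in acceptors (group fit, 25 of 44 members called lower with the block, where 2.09% of all genes were) beside -0.08 in donors. The immediate early list, at 0.16 in donors, had a median of -0.11 in acceptors (group fit). Its acceptor pairs were at 0.26, -0.40 and 0.03, so it was not higher in all of them. The edgeR test of the difference between the 2 contrasts called 0 genes in the group fit (576, or 4.40%, at an unadjusted p under 0.05) and 0 of 12017 in the paired fit (908 unadjusted). With the block it called 1 (0.00765%), the cation channel gene Trpm4, and DESeq2 without a block called 1, Mat2a. For Ifit3 that difference was 2.10 on the log2 scale (95% interval 0.58 to 3.62, paired edgeR fit, adjusted p 0.642), so donors and acceptors were not shown to differ in it with all 3 experiments. When experiment 2 was left out of the paired edgeR fit, Ifit3 was the 1 gene called (adjusted p 0.0423). Across 11140 genes the 2 sets of fold changes had a correlation of 0.21, given as a description, since genes are not independent replicates. Csf2ra and Cd63 were at log2 fold changes of 0.36 and 0.23 in acceptors and were not called there.

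The genes called in the 6 libraries were then followed through the other samples as a single level, with CPM per library total. It was the mean log2(CPM + 1) of the 435 higher genes of at least 5 CPM minus that of the 223 lower genes. In the 6 libraries that chose the genes it was 0.43 to 0.59 at 0 min and -0.35 to -0.29 in aSyn-only cells, which is no test. The other 34 samples of experiments 1 to 3 covered the same span, from -0.51 to 0.71. Of these, 3 lay at or above the lowest 0 min donor, namely the 60 min donor of experiment 1 (0.71), the 30 min acceptor of experiment 3 (0.66) and the 0 min acceptor of experiment 3 (0.65). Another 3 lay at or below the highest aSyn-only library, namely the untreated sample of experiment 3 (-0.51) and the 150 min acceptor and donor of experiment 1 (-0.44 and -0.42). The 0 min acceptors of experiments 1 and 2 were at -0.00298 and -0.15, and the untreated samples of experiments 1 and 2 at -0.03 and 0.15. Across experiments 1 to 3 together, the 0 min donors were therefore not alone at the high end of this level, nor the aSyn-only libraries at its low end. Counted from the lowest within experiments 1, 2 and 3, the 0 min donors ranked 13 of 14, 13 of 13 and 11 of 13. The aSyn-only libraries ranked 3, 1 and 2. These ranks are no test, since the same libraries chose the genes. In experiment 4, which chose none of the genes and has no 0 min sample, the 12 samples lay between -0.59 and -0.11. Its aSyn-only library, the 1 library of that group not used in the choice, was the highest of the 12 (-0.11) and lay above the aSyn-only libraries of experiments 1 to 3, and its untreated sample was the lowest.

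**Figure D4:**
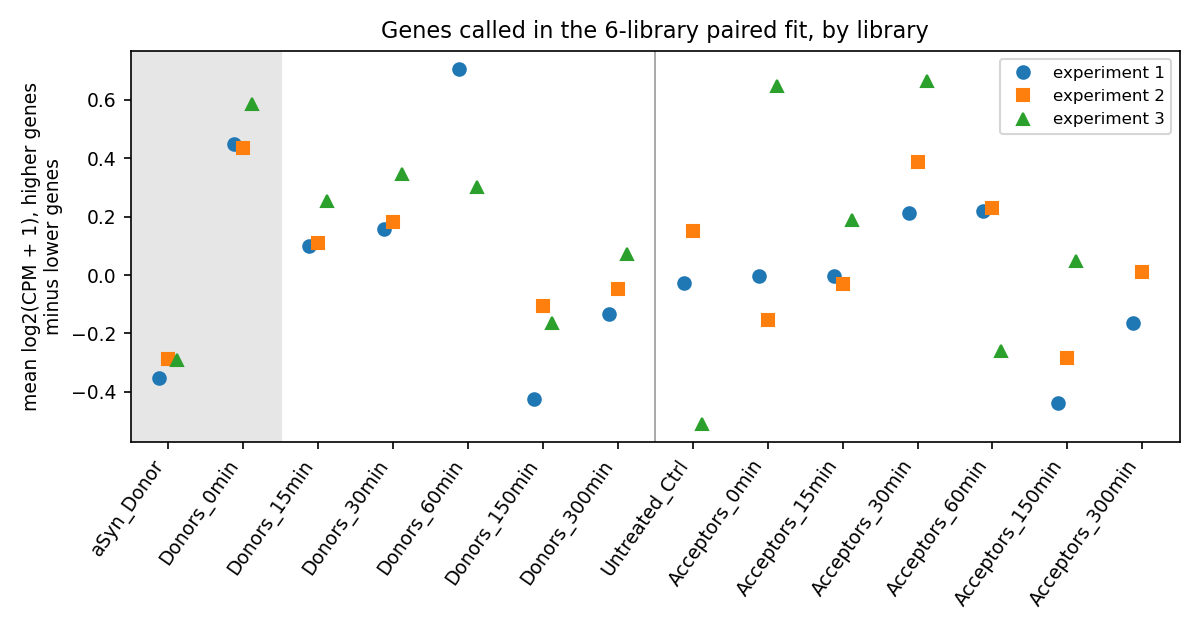
Mean log2(CPM + 1), with CPM per library total, of the 435 higher genes minus that of the 223 lower genes in each sample of experiments 1 to 3. Groups run along the x axis, with symbols for the experiments. The 0 min donors lie at 0.43 to 0.59 and the aSyn-only libraries at -0.35 to -0.29 by construction, and the other 34 samples range from -0.51 to 0.71.

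Some measures of library make-up moved with the 2 groups. The 10 genes with most counts took 18.0, 17.6 and 16.5% of counts at 0 min and 19.6, 18.9 and 17.7% in aSyn-only cells. Rn45s, the ribosomal RNA precursor, took 7.35, 6.94 and 3.81% of counts at 0 min and 9.24, 7.73 and 4.78% in aSyn-only cells, lower at 0 min in each pair. The GC content of the final 300 transcript bases, near which this 3′ method reads, had a median of 48.3% in genes called higher, 43.4% in genes called lower and 45.8% in all genes tested. The parts of these measures in the called genes were not tested, beyond the group fit without Rn45s, which called 0 genes.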

How the data were processed

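The authors deposited a table of whole-number read counts per gene (16632 genes, 54 libraries, no row without a gene name), used here, and a normalized table of the same genes, not used here. The libraries were QuantSeq 3′ libraries read as single reads, per the labels' protocols. The submitters' processing notes name STAR, Partek, DESeq2 and the build mm10, without versions or roles. The counter, the annotation and the use of strand are not given in the sources used here.

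Counts were fitted with edgeR 4.0.16 in R 4.3.3 (TMM scaling, filterByExpr with a minimum count of 10, quasi-likelihood F test, Benjamini-Hochberg adjustment, threshold 0.05). The group fit held all 14 groups of experiments 1 to 3, as 41 libraries and 40 samples, since the 2 untreated libraries numbered 2 were summed, with no block. Alternatives were a replicate block, the 6 libraries alone with the block, DESeq2 1.42.0, limma 3.58.1 (voom), other scaling, no filter, experiment 4 added, Rn45s removed, and libraries left out. DESeq2 with the block, and the paired fit by other tools or without an experiment, were added after seeing the data. Scripts were tested on simulated data. CPM values are scaled by TMM unless given per library total. SE is the size of the log2 fold change divided by the root of F.

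The pairing comes from the replicate numbers in the titles, which go with 1 passage each. Same-numbered 0 min and aSyn-only libraries deviated together from their group means (r = 0.424, 0.471 and 0.494 for numbers 1, 2 and 3), and so did acceptors and untreated samples (0.437, 0.536 and 0.576).

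Named genes were the 10 lowest p-values in each direction of the group fit (called or, failing that, at least 5 CPM and of 1 direction in all pairs), 29 fixed examples, and of each list the 2 highest and the members that changed most. Genes named from the 6-library paired fit were chosen after their values were seen. The members, lists (17 pathways and 6 marker sets) and rules were chosen with earlier results of these data known. Positions are from GENCODE vM21 or RefSeq on GRCm38, the assembly of mm10. The limit of 3 counts covers counting error only. Some genes are not reported here.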

Additional observations from a re-analysis of the deposited data

Results flagged for a closer look

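Trpm4, a calcium-activated cation channel, was the 1 gene whose change at 0 min differed between donors and acceptors by a test of the difference itself with the replicate block (-1.49 on the log2 scale, edgeR adjusted p 0.0404). It was at 5.55, 4.90 and 4.87 CPM in 0 min donors against 8.03, 6.57 and 6.35 CPM in aSyn-only cells, and at 7.38, 6.63 and 9.53 CPM in 0 min acceptors against 3.95, 3.48 and 4.03 CPM in untreated cells. The 3 donors lay below their partners and the 3 acceptors above theirs, without overlap in either contrast. The difference did not pass in the group fit (edgeR adjusted p 0.246) or in the paired fit of these groups (0.516), with nearly the same size in each.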

How the results depend on the processing

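The donor contrast gave 0 calls in the group fit and 0 under other scaling, DESeq2, no filter on low counts, without Rn45s, with only the groups compared and no block, and with experiment 4 added with or without the block. It gave 2 with the replicate block, 18 by DESeq2 with the block, 679 in the paired fit of the 6 libraries, and on those 419 by DESeq2 and 679 by limma-voom. Leaving out a replicate number gave 0 calls in the group fit, 0 to 26 with the block (26 without experiment 3) and 980, 423 and 358 in the paired fit without experiments 1, 2 and 3. Leaving out a single library gave 0 to 1 call, the 1 being Gm20257 without the aSyn-only library of experiment 3.

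All 679 genes of the paired fit kept their sign, as far as they were tested, in every setting named above that kept whole pairs within experiments 1 to 3. With experiment 4 added 650 did, or 670 with the block, and 665 to 674 did without a single library. All these settings reuse libraries that chose the genes, so the kept signs are no test. The 20 genes picked by the group fit and 90 of the 150 named genes kept their sign in each of the 27 alternatives. For the 20 this is no test either, since they were picked for 1 direction in all 3 pairs.

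For acceptors against untreated cells the group fit called 2 genes, no filter also 2, scaling by relative log expression and leaving out Rn45s each 4, DESeq2 85, the replicate block 376, and DESeq2 with the block 530. The count was 0 with all 4 experiments and 131 with the block added to them, 0 with only the compared groups and 90 with the block, where DESeq2 called 217 and limma-voom 73. Leaving out a replicate number gave 0, 29 and 1 without the block, 52, 181 and 201 with it for numbers 1, 2 and 3, and 218 to 307 in the paired fit. For the difference between both contrasts the count was 0 in the group fit, 1 by DESeq2, 1 with the replicate block, 56 by DESeq2 with the block, 0 in the paired fit and 13 by DESeq2 there. Leaving out a replicate number gave 0 to 3 without the block, 1, 2 and 130 with it and 0 to 1 in the paired fit. The 1 was Ifit3 without number 2 and Oaz1-ps without number 3. The causes were not tested. DESeq2 with the block, the blocked fits without a replicate number, and the paired fits by other tools or without a replicate number were chosen after seeing the data.

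With 3 libraries a group, a change under about 1.32-fold lay within the median 95% interval of the group fit for genes of at least 5 CPM, and under 1.16-fold in the paired fit, which rests on 2 residual degrees of freedom per gene.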
